A study of Mus musculus with 9 samples.

Results

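The probes described here are the array features designed on mouse full-length cDNA clones that carry no gene name: in the files their gene name repeats a clone accession that begins with AK. There were 3324 such clone probes for 3312 clones among the 41174 probes of the array that are not controls. The other probes were 34891 with a gene name and 2959 without one whose identifier is of another kind. Each clone probe is 60 bases long, and 3323 of the 3324 had a single spot per array.

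Full-length cDNA clones were made by copying polyadenylated RNA from many mouse tissues and stages and sequencing the copies, largely in the RIKEN mouse transcriptome project. The collection holds messenger RNAs but also transcripts with no open reading frame, alternative ends of known genes, antisense transcripts and incompletely spliced precursors. A clone with no gene name on this array design is therefore a piece of RNA once found in some tissue, whose gene, if any, the design did not assign.

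The cells were pro-B cells of background strain C57Bl/6, transformed with A-MuLV (the Abelson murine leukemia virus), of genotype Ebf1fl/fl;RERTCre. In all 9 samples 2 μM 4-hydroxy-tamoxifen was used to switch on the Cre recombinase meant to delete Ebf1, the gene of a transcription factor that specifies B cells. Mock cells (3 arrays) received no EBF1 and were taken 4 days after tamoxifen, before death of the cells was seen. EBF1wt cells (3 arrays) carried the retrovirus pmys-EBF1wt-IRES-GFP and EBF1ΔC cells (3 arrays) pmys-EBF1ΔC-IRES-GFP, whose protein lacks the C-terminal domain; both got tamoxifen 24 h after transduction, were sorted for GFP 5 days later and grown for over 2 further weeks. Mock therefore differs from the EBF1 groups in time in culture, sorting and retrovirus as well as in EBF1, and its 3 arrays had slides and a scan day of their own, so that these cannot be told apart from the group. Whether the replicates of a group came from separate cultures is not in the labels, so a p-value covers the spread between these 9 samples, which may be technical, and 3 arrays per group limit the precision.

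All 9 pro-B markers checked, among them Cd79a and Pax5, were well above background in all 3 groups, with a summed signal of 272 to 285 in Mock, 866 to 933 in EBF1wt and 874 to 908 in EBF1ΔC, in units of the array's 75th percentile. None of 4 stromal markers was. Of the 5 erythroid markers, 3 were well above background in Mock and 1 in each EBF1 group, and their summed signal ran from 345 to 406 in Mock, 3.29 to 5.46 in EBF1wt and 2.41 to 5.33 in EBF1ΔC; Klf1 was not well above background in any group. Of 5 myeloid markers 1, Lyz2, was well above background in each group, with a summed signal of 0.378 to 0.506, 0.48 to 2.71 and 7.91 to 15.4 in Mock, EBF1wt and EBF1ΔC. The summed signal of 4 plasma cell markers was 8.64 to 9.15 in Mock, 2.09 to 2.41 in EBF1wt and 1.51 to 2.01 in EBF1ΔC, and that of 6 T cell markers 1.24 to 1.34, 0.835 to 0.985 and 1.34 to 1.58. The part of other cell types in the differences below was not tested, and fewer cells of a type and less RNA per cell cannot be told apart in such samples.

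Clone probes were made of fewer G and C bases than the rest of the array. Their median GC content was 35% (quartiles 35% and 36.7%), against 41.7% for named probes and 43.3% for other unnamed probes. The hexamer AATAAA, the usual polyadenylation signal, was searched on the strand of the probe alone and stood in 244 clone probes (7.34%), in 1627 named probes (4.66%) and in 96 other unnamed probes (3.24%), all of the same length of 60 bases. It holds no G or C, and these shares were not adjusted for the GC content of the sets. Among the 919 clone probes that entered the tests below it stood in 50 (5.44%). Only 10 clone probes shared a run of 20 bases with any other probe on either strand. The probes below carry the main findings: clones around Ebf1, clones that fell most, clones that rose, a clone that differed between the EBF1 forms, and a steady clone. They are written 5′ to 3′ on the strand of the clone as in the files, in lower case, with AATAAA in capitals.
AK042875: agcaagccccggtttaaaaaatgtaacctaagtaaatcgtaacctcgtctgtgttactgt
AK034802: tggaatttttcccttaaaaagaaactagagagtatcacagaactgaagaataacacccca
AK033099: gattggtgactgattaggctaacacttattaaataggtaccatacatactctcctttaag
AK050242: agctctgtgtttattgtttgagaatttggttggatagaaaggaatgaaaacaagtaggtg
AK042659: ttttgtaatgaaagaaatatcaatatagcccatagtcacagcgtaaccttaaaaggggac
AK042082: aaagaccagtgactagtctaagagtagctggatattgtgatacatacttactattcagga
AK012991: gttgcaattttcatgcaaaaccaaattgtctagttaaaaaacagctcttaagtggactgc
AK041055: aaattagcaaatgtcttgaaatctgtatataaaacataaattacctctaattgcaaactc
AK199677: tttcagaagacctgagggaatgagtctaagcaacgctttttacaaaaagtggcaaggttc
AK089361: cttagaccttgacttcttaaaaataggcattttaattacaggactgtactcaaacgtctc
AK012436: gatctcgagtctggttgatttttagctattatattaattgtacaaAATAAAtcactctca
AK077428: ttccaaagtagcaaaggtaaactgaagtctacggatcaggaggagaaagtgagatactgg

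In mm9, the build the files name, the probe of AK042875 lies at chr11:44447675-44447734 and that of AK034802 at chr11:44740994-44741053, both on the plus strand. The probe of AK033099 is at chr8:67208843-67208902 on the minus strand and that of AK050242 at chr13:75870375-75870434 on the plus strand. AK042659 is at chr4:8666960-8667019 and AK042082 at chr7:108335965-108336024, both on the plus strand. AK012991 is at chr11:11363346-11363405, AK041055 at chr6:48474325-48474384 and AK199677 at chr3:130936771-130936830, all on the plus strand. AK089361 is at chr15:9458725-9458784 on the minus strand, AK012436 at chr8:90830803-90830862 on the plus strand and AK077428 at chr9:45666831-45666890 on the minus strand. Whether a probe is exonic or intronic was not determined, since no annotation of that build was used here. Of all clone probes 3309 had a position, 1657 on the plus and 1652 on the minus strand, and 83 pairs of neighbouring clone probes stood within 5 kb of each other.

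Most clone probes gave little signal in these cells, and fewer gave signal with EBF1 than in Mock. Agilent's software marks a spot as well above background from its signal and the spread of the background. On this measure 994, 1078 and 977 clone probes were detected on the 3 Mock arrays, 651, 692 and 669 on the EBF1wt arrays and 685, 713 and 795 on the EBF1ΔC arrays. Every Mock array had more than every EBF1 array. The share was 29.4% to 32.4% in Mock, 19.6% to 20.8% in EBF1wt and 20.6% to 23.9% in EBF1ΔC, while for named probes it was 57.3% to 59.96%, 54.4% to 54.8% and 55.1% to 56.9%. The gap between Mock and EBF1 arrays was thus wider among clone probes than among named ones in points of percent.

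**Figure D1:**
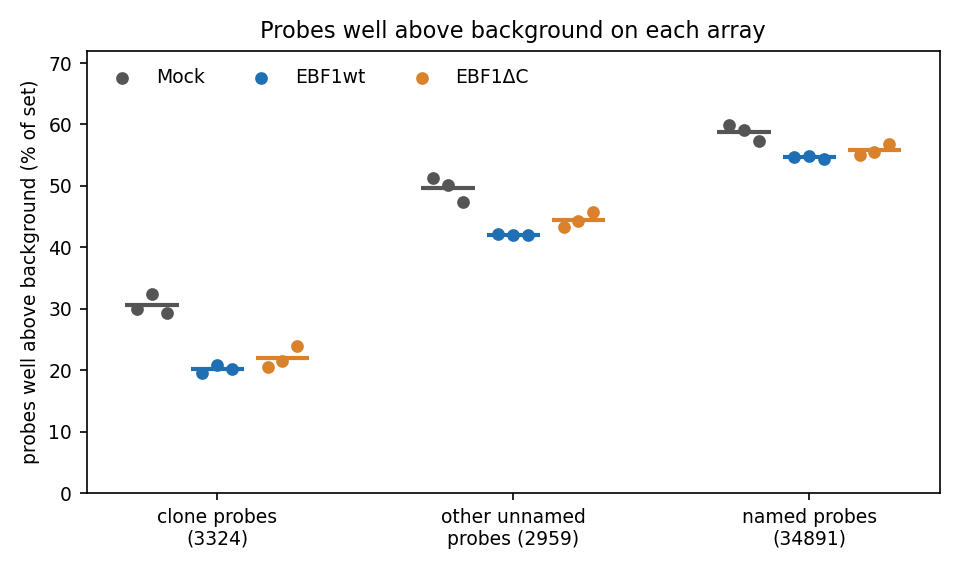
Share of probes well above background on each of 9 arrays (points; lines are group means) for clone probes, other unnamed probes and named probes, in percent of the set. Clone probes lie between 29.4% and 32.4% on Mock arrays and between 19.6% and 23.9% on EBF1 arrays.

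On all 3 arrays of a group, 894 clone probes were well above background in Mock, 543 in EBF1wt and 601 in EBF1ΔC. On no array were 1937 of the 3324 detected (58.3%, against 32.8% of named probes), and 511 were detected on all 9 (15.4%, against 50.8%). A set of 158 clones (4.75%) was detected on all 3 Mock arrays and on no EBF1 array, a pattern of 526 named probes (1.51%). The reverse, all 6 EBF1 arrays and no Mock array, was shown by 3 clones (0.09%) and 106 named probes (0.304%). The 1937 undetected clone probes had scaled signals that overlapped between the groups: their median log2 signal relative to the 75th percentile of the array ran from -7.74 to -7.11 in Mock, -7.48 to -7.24 in EBF1wt and -7.49 to -7.32 in EBF1ΔC.

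Clone probes were lower with either EBF1 form than in Mock. For the tests the log2 signal was set relative to each array's 75th percentile, and a probe entered where every array of some group, 3 of 3, was marked well above background, which 919 of the 3324 clones and 22357 of all probes did. A probe was called at an adjusted p under 0.05 (limma, Benjamini-Hochberg over all 22357 probes) and a difference of at least 2-fold. Between EBF1wt and Mock 542 of the 919 were called lower, against a background of 17.4% of all probes tested, and 21 higher, against 6.09%. Between EBF1ΔC and Mock 528 were called lower (background 16.3%) and 22 higher (background 6.04%). The calls made 59.0% and 57.5% of the clones tested in the lower direction. Of 1392 other unnamed probes tested 29.0% and 23.1% were called lower, and of 20046 named probes 14.7% and 13.9%. Both comparisons use the same 3 Mock arrays. The median difference of the tested clones was -1.35 for EBF1wt and -1.27 for EBF1ΔC on the log2 scale, beside 0.04 and 0.04 over all probes tested.

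Of the 919, 297 entered through Mock alone and so had to be lower elsewhere, and 25 entered without Mock. Of all 22357 probes tested 1761 entered through Mock alone. Among the 511 clones detected on all 9 arrays, where no group decides the entry, 233 were called lower in EBF1wt and 10 higher, beside a background of 11.1% called lower among the 19331 probes detected on all arrays. In EBF1ΔC 236 were called lower and 13 higher, beside 10.7%. Their median differences were -0.93 and -0.87, against 0.15 and 0.13 for 17730 named probes and -0.06 and 0.01 for 1090 other unnamed probes. Of the 511, 410 lay below 0 in EBF1wt (80.2%, named probes 40.6%) and 404 in EBF1ΔC (79.1%, named probes 41.3%).

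**Figure D2:**
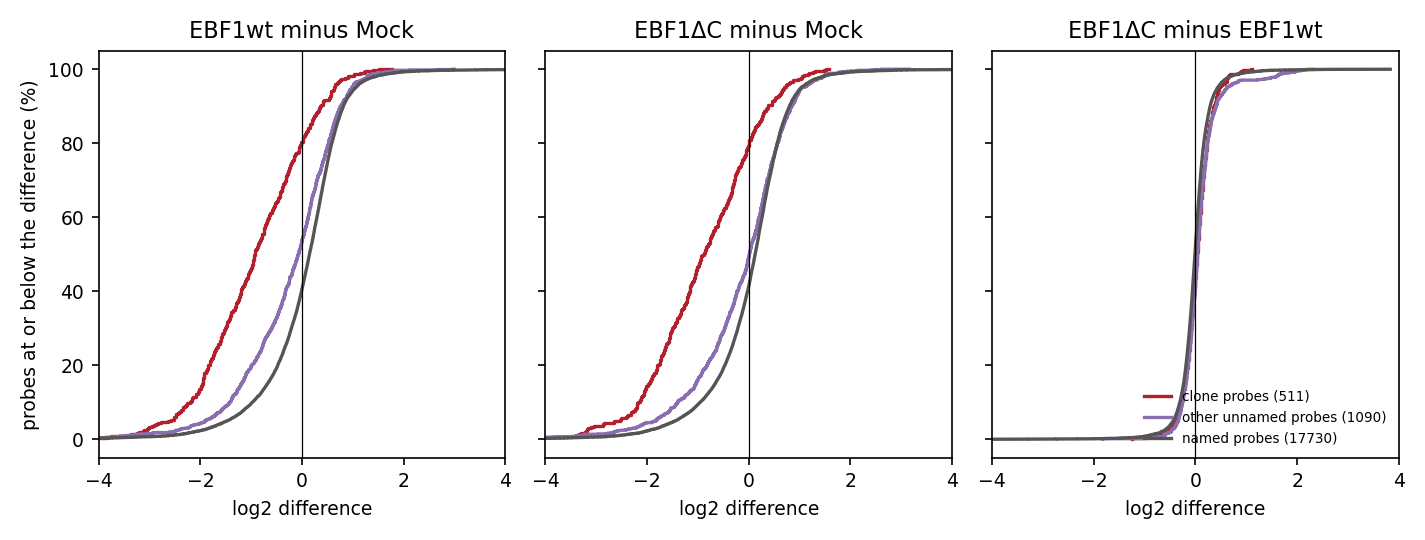
Cumulative share (percent) of clone probes, other unnamed probes and named probes detected on all 9 arrays against the log2 difference, 1 panel per comparison. The clone curve lies to the left in both comparisons with Mock (medians -0.93 and -0.87) and on the others between the EBF1 forms (median 0.04).

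The gap to named probes stood in each range of signal. When the 511 clones were split into quartiles of mean signal, their median differences between EBF1wt and Mock were -0.57, -1.03, -1.24 and -0.87 from the dimmest to the brightest quartile. Those of named probes between the same limits were -0.36, -0.29, -0.14 and 0.23. Other unnamed probes stood at -0.53, -0.43, -0.40 and 0.14, close to the clones in the dimmest range. The brightest range has no upper limit and held 128 clones and 13476 named probes. The size of the difference depended on how the background was treated. The unprocessed signal of these probes was low: the median of the 511 was 125, 146 and 128 intensity units on the Mock arrays, 89.6, 88.2 and 89.5 on EBF1wt and 78.4, 72.2 and 98.5 on EBF1ΔC, over a local background of 18 to 19, 20 to 36 and 17 to 32. With normexp background correction, an added offset of 50 and quantile normalization, the median of the 919 was -0.22 in EBF1wt and -0.23 in EBF1ΔC, and 98 and 93 were called lower, 10.7% and 10.1% against 5.45% and 5.39% of all probes tested. Without the offset, a setting chosen after seeing the data, it was -0.50 and -0.54. Then 232 and 259 were called lower, 25.2% and 28.2% against 8.97% and 9.13% of all probes tested. Scaling to the array median instead raised the median of all probes to 0.75 in EBF1wt and 0.58 in EBF1ΔC. The clones stood 1.40 and 1.30 below it, as in the main scaling. This gap had to stay the same, because either scaling shifts all probes of an array by the same amount. It is therefore no check of the difference. With median scaling the lower share of the clone calls was 81.1% and 84.8%, in place of 96.3% and 96.0%.

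Among clones detected on all arrays of both groups, the lowest with EBF1wt was AK033099, from embryonic testis, which the files annotate as cytochrome c, pseudogene 3. Its log2 signal was 0.01, 0.43 and 0.40 on the Mock arrays, -4.95, -4.19 and -4.60 on EBF1wt and -4.12, -4.40 and -4.38 on EBF1ΔC. The groups were apart by far more than their spread, with differences of -4.86 ± 0.20 (SE, adjusted p = 6.3e-07) for EBF1wt and -4.58 ± 0.20 (adjusted p = 8.95e-07) for EBF1ΔC, or 29.1-fold and 23.9-fold lower. Next came AK050242, cloned from a liver tumor and 31.0 kb upstream of the nearest named probe, Ell2, on the same strand. It read -0.29, 0.50 and 0.38 in Mock, -3.51, -3.58 and -3.83 in EBF1wt and -3.44, -3.10 and -2.87 in EBF1ΔC. The probe of Ell2, a transcription elongation factor known for its role in antibody-secreting cells, moved the same way, by -2.86 and -2.32. AK042659, from neonatal cerebellum, read -0.92, -0.43 and -0.49 in Mock, -4.61, -3.79 and -4.74 in EBF1wt and -5.07, -5.09 and -3.88 in EBF1ΔC. Its neighbour Chd7, a chromatin remodeller 11.5 kb away on the same strand, differed by -0.92 and -0.94 and was not called.

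AK036477, from bone, read -0.69, -0.02 and -0.20 in Mock, -3.96, -3.74 and -3.52 in EBF1wt and -3.91, -3.64 and -3.52 in EBF1ΔC. AK050555, from pancreatic islets, read 0.04, 0.49 and 0.35 in Mock, -2.75, -2.94 and -3.47 in EBF1wt and -2.69, -3.005 and -2.74 in EBF1ΔC. In both, each EBF1 array lay below each Mock array, and the EBF1 forms overlapped. AK036773, annotated as similar to a neprilysin-like peptidase, differed by -3.21 ± 0.22 in EBF1wt and -3.49 ± 0.22 in EBF1ΔC. AK041395, from neonatal thymus and annotated with the metalloprotease of the Adamts6 type, was well above background on 2 of the 3 EBF1wt arrays and differed by -4.62 ± 0.52 and -3.99 ± 0.52; the Adamts6 probe 66.6 kb away was lower too, by -3.07 and -3.40. For AK082584 the third EBF1ΔC array had no value, because its spot was marked as an outlier; the other arrays gave -3.32 ± 0.29 in EBF1ΔC, which turned to 0.21 in the authors' deposited log2 values and to -0.50 with the spot kept.

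Some clones sank to the background with EBF1, so that their folds are lower bounds: the Mock mean was set against the lowest signal called well above background on each EBF1 array, or the probe's own where higher. AK042082, from neonatal thymus, read -0.54, 0.14 and 0.25 in Mock, -5.76, -5.45 and -4.61 in EBF1wt and -5.18, -5.30 and -6.02 in EBF1ΔC. It was at least 36.6-fold lower in EBF1ΔC (adjusted p = 6.37e-06), where no array was well above background, and differed by -5.22 ± 0.35 in EBF1wt, where 1 array was. The named probe 4.55 kb downstream of it, Fchsd2, was lower as well, by -4.87 and -4.69. AK043081 was at least 29.6-fold lower in EBF1wt (adjusted p = 7.21e-06), with Mock arrays at -0.51, -0.18 and -0.14. It lies between probes of the recombination gene Rad51l1, neither of which was called in that comparison (-0.36 upstream and 0.41 downstream). AK081910 and AK079264, both annotated as weakly similar to an MHC class I T7 antigen fragment, stand on chromosomes 1 and 11. AK081910, inside the span of the survival gene Bcl2, was at least 12.1-fold lower in EBF1wt and at least 12.9-fold lower in EBF1ΔC, while the nearest Bcl2 probe, 31.2 kb away on the same strand, was called lower too (-1.85 and -1.49) and the 3′-most Bcl2 probe differed by -0.01 and 0.17. AK079264 was at least 9.75-fold and at least 10.3-fold lower. AK080210 was at least 11.0-fold lower in EBF1wt; the downstream March1 probe, for a membrane ubiquitin ligase that acts on MHC class II, was lower by -3.50.

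Few clones rose, and by less. AK012991, from whole embryo, read -4.70, -4.43 and -4.67 in Mock, -3.14, -3.05 and -3.05 in EBF1wt and -3.08, -2.94 and -3.31 in EBF1ΔC, a difference of 1.52 ± 0.12 (adjusted p = 1.54e-05) and 1.49 ± 0.12 (adjusted p = 1.78e-05). AK199677 read 0.07, -0.03 and -0.03 in Mock, 1.44, 1.27 and 1.47 in EBF1wt and 1.41, 1.46 and 1.11 in EBF1ΔC. It lies 0.059 kb from the probe of Hadh, a fatty acid oxidation enzyme, on the opposite strand, and that probe differed by 0.81 and 0.50. AK041055, from aorta and vein, read -1.82, -1.61 and -1.52 in Mock, -0.50, -0.22 and -0.50 in EBF1wt and -0.57, -0.24 and -0.35 in EBF1ΔC. The groups did not overlap in these 3 clones, and the EBF1 forms did. The zinc finger gene Zfp862, whose probe is 10.4 kb from AK041055 on the same strand, moved the other way, by -2.79 and -2.83.

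AK076240, from fetal liver, rose by 1.03 ± 0.09 and 1.02 ± 0.09, and AK080254 by 1.15 ± 0.13 and 1.05 ± 0.13. AK080458, which overlaps none of the named probes but lies 0.206 kb from a histone H2A probe on the other strand, rose by 1.24 ± 0.19 in EBF1wt; without EBF1wt replicate 2 the value was 0.99 and the call was lost. AK139506, from the 2-cell egg, had the highest difference among clones measured in both groups, 1.77 ± 0.68 in EBF1wt, but its arrays read 3.89, 3.43 and 1.74 there, and without EBF1wt replicate 1 or 2 the difference was 1.34 or 1.57 and not called; it was not called either without Mock replicate 1, 2 or 3 (1.74, 1.86 and 1.72) or EBF1ΔC replicate 1 (1.77). Lower bounds for rising clones were small. AK041701, from neonatal thymus, was at least 1.98-fold higher in EBF1wt and at least 2.01-fold higher in EBF1ΔC, and AK083178, from hippocampus, at least 1.93-fold and at least 2.16-fold higher. Of the 21 clones called higher in EBF1wt, none lay inside a gene on the strand of that gene as defined below. Under normexp with the offset, AK012991 (0.69 and 0.66), AK076240 (0.77 in EBF1wt), AK080254 (0.63 in EBF1wt), AK080458 (0.84), AK041701 (0.41 and 0.37) and AK083178 (0.36 and 0.42) were no longer called.

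**Figure D3:**
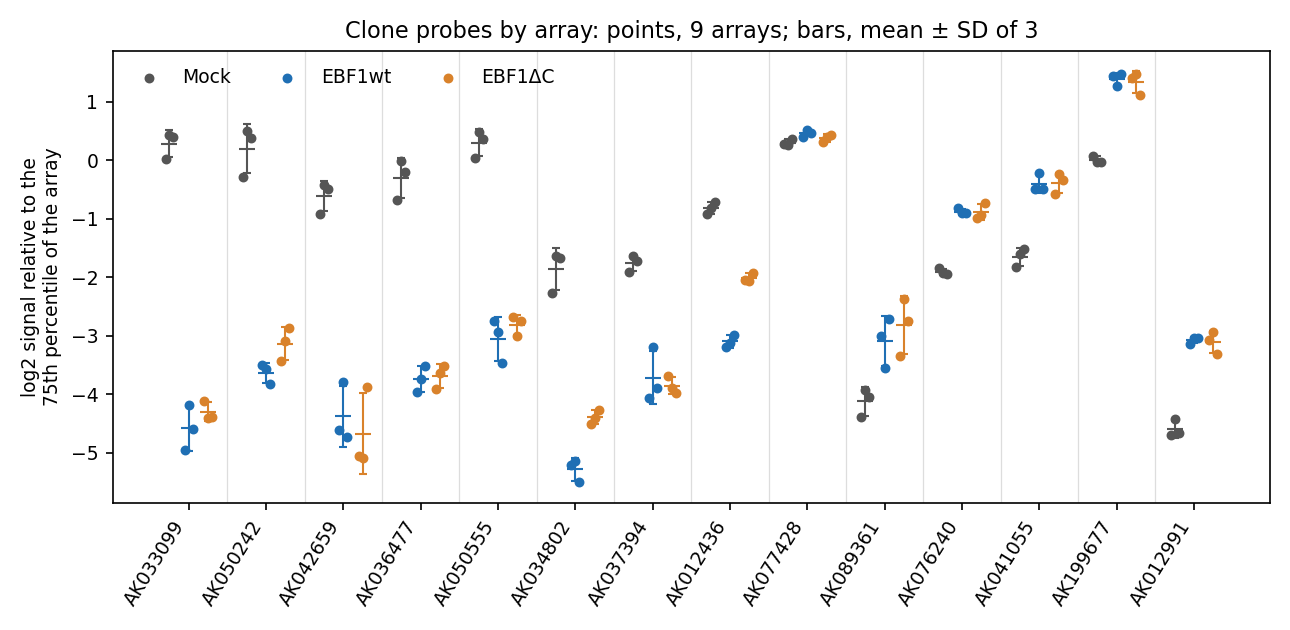
Log2 signal relative to the 75th percentile of the array for 14 clone probes on 9 arrays (points), with mean and SD of the 3 arrays of each group; levels are not comparable between probes. The first 8 clones are lower on all EBF1 arrays, AK077428 is steady, and the last 5 are higher on all EBF1 arrays.

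The tested clones were sorted by source tissue, with the background of 17.4% of all probes called lower. Of 204 tested clones from lymphoid, myeloid or other blood-forming sources 119 were called lower in EBF1wt (58.3%) and 5 higher. Of 335 from nervous system and eye, a class that also took head sources, 210 were lower (62.7%). Of 95 from reproductive organs 50 were lower (52.6%). Both classes took sources of any age. Of 207 in an embryo class, which took the remaining embryonic and neonatal sources, 128 were lower (61.8%). Of 74 from other named tissues 35 were lower (47.3%). Among clones detected on all 9 arrays, against 11.1% of all such probes, 51 of 118 blood-forming, 86 of 172 nervous system and eye, 55 of 110 embryo, 24 of 58 reproductive and 17 of 50 other clones were called lower. The sources differed in how many clones could be tested at all: 37.1% of the 550 blood-forming clones but 21.1% of the 1588 from nervous system and eye. By annotated product, 458 of 734 tested clones called unclassifiable were lower (62.4%), 31 of 62 with a hypothetical protein (50.0%) and 51 of 112 with a named or similar product (45.5%). These shares include clones that entered through Mock alone and so had to be lower elsewhere. Among clones detected on all 9 arrays the counts were 194 of 389, 12 of 41 and 25 of 72, against 11.1% of all such probes. By base composition, 56 of 80 tested clone probes with up to 30% GC were lower, 426 of 709 with 30 to 40% (60.1%) and 60 of 130 above 40% (46.2%). Among those detected on all 9 arrays the medians in the 3 GC classes were -1.04, -0.95 and -0.79, and 14 of 28, 185 of 394 and 34 of 89 were lower. No test of these shares against each other was made.

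Clones were also sorted by their position relative to the nearest named probe; the shares were not tested against each other. The nearest named probe stood at a median distance of 20357 bases, and 1079 clones had one within 10 kb. Of these, 152 tested clones lay upstream of that probe on its strand. In EBF1wt 91 of them were called lower (59.9%) and 1 higher, beside 17.4% and 6.09% of all probes tested. Some tested clones entered through Mock alone and so had to be lower elsewhere. Of 136 downstream on the same strand 64 were lower (47.1%) and 4 higher, and of 89 on the opposite strand 24 were lower (27.0%) and 8 higher. Where the neighbour was tested too, the clone and neighbour medians were -1.31 and 0.05 for 132 upstream pairs, -0.91 and 0.15 for 120 downstream pairs and -0.23 and 0.21 for 68 opposite pairs. In EBF1ΔC they were -1.21 and 0.09, -0.86 and 0.19, and -0.13 and 0.20. Over the 320 pairs, the clone was called lower and its neighbour not called in 110 (34.4%) for EBF1wt and in 116 (36.3%) for EBF1ΔC. In 30 and 27 pairs both were called lower.

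A further grouping was made after the data were seen. Clones lying between 2 probes of 1 named gene less than 2 Mb apart numbered 812, of which 711 were on the strand of the gene. Of the 205 tested among these, 154 were called lower in EBF1wt (75.1%, over all probes tested 17.4%) and 0 higher by limma (4 at an adjusted p under 0.05 alone). In EBF1ΔC 149 of them were lower (over all probes tested 16.3%) and 1 higher. Of the 93 detected on all 9 arrays 62 were lower in EBF1wt (66.7%, median -1.47) and 64 in EBF1ΔC (68.8%, median -1.52), beside 11.1% and 10.7% of all such probes. With quantile normalization 5 of the 205 were higher in EBF1wt and with median scaling 7, beside 2058 and 7926 of all 22357 probes tested. Of 17 opposite-strand clones detected on all 9 arrays 2 were lower and 1 higher in EBF1wt (median -0.06). Of 27 tested on the opposite strand 7 were lower in EBF1wt and 2 higher, and 8 and 3 in EBF1ΔC. For 192 of the same-strand clones the 3′-most named probe of the gene was tested as well. Their median difference in EBF1wt was -1.81 and that of the 3′ probes 0.32, and the clone was below the 3′ probe in 183 of the 192 pairs. Of the 3′ probes 11 were called lower and 18 higher. Some of these clones entered through Mock alone and so had to be lower elsewhere. Where the clone was detected on all 9 arrays, 91 pairs had medians of -1.47 and 0.31, with 85 clones below. In 22 opposite-strand pairs the medians were -0.12 and 0.24, with 15 clones below. With normexp and the offset the same-strand median was -0.31, 26 were called lower and 165 of 192 clones lay below the 3′ probe; with quantile normalization alone it was -1.34 and 179. The opposite-strand median turned to 0.35 with median scaling, 0.21 with quantile normalization and 0.07 with normexp and the offset.

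**Figure D4:**
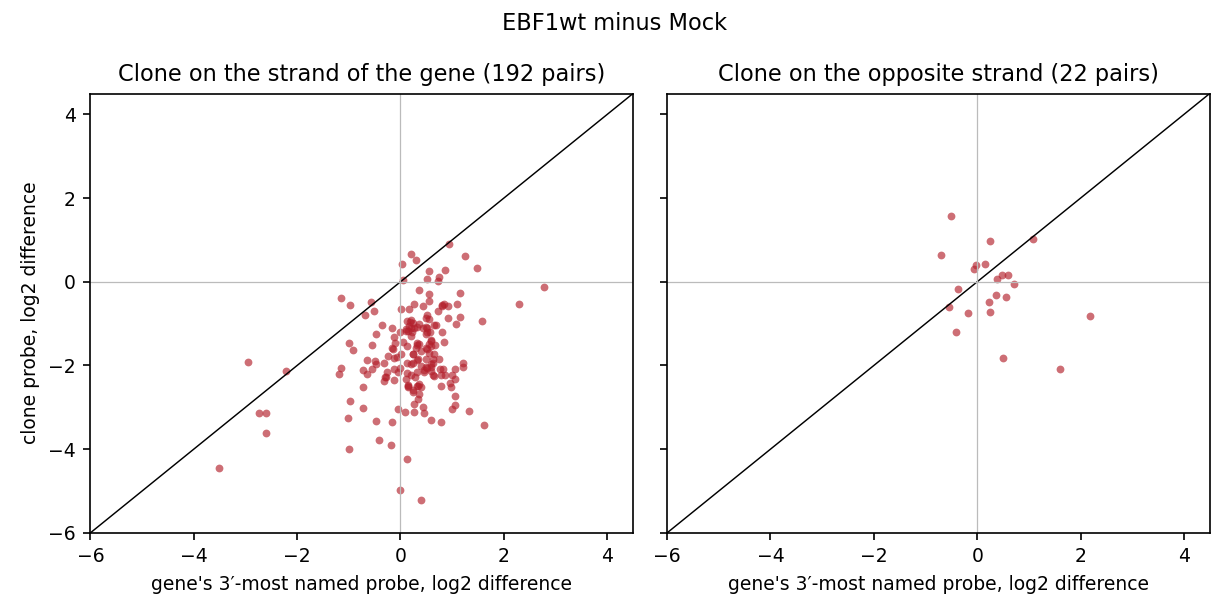
Log2 difference between EBF1wt and Mock of clone probes that lie between 2 probes of a named gene (y) against that of the gene's 3′-most probe (x), on the strand of the gene (192 pairs) and on the opposite strand (22 pairs); the diagonal marks equal differences. On the gene's strand 183 points fall below the diagonal. Some of these clones entered the tests through Mock alone and so had to be lower elsewhere.

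Single pairs show the range. AK083754 lies inside Wnk1, a kinase of ion transport, 6.12 kb from a Wnk1 probe on the same strand, and was at least 7.20-fold lower in EBF1wt, while the Wnk1 probe differed by -0.48. AK036857 inside Rp2h was at least 2.45-fold lower and the nearest Rp2h probe differed by -0.49. AK082454, which stands 6.95 kb beyond the probe of the zinc finger gene Zfp800, fell from -1.03, -0.40 and -0.42 in Mock to -3.45, -2.91 and -3.21 in EBF1wt and -3.83, -3.64 and -3.54 in EBF1ΔC; the Zfp800 probe differed by 0.25 and 0.24. AK033099, described above, is 9.85 kb from Klhl2, whose probe differed by -0.15 and -0.05. In 4 of the 320 pairs the clone was called lower and the neighbour higher in EBF1wt. AK043653 inside Mrpl15, a mitochondrial ribosomal protein gene, was at least 1.73-fold lower and the Mrpl15 probe 1.33 higher on the log2 scale. AK086516 was lower by -1.29 and Rnf8, a ubiquitin ligase of DNA repair, higher by 1.13. AK148746 was lower by -1.22 and Rab11a, a GTPase of recycling endosomes, higher by 1.09. AK086857 was lower by -1.42 and a named probe 1.67 kb away on the opposite strand higher by 2.70, a clone call lost without Mock replicate 2 (-1.25), Mock replicate 3 (-1.34) or EBF1wt replicate 1 (-1.15). The reverse held for AK039782, 0.107 kb from the probe of Ero1lb, an oxidase of the endoplasmic reticulum, on the opposite strand: it was higher by 1.06 in EBF1wt and 1.74 in EBF1ΔC and Ero1lb lower by -1.65 and -1.497. Without Mock replicate 3 or EBF1wt replicate 1 the first value was 0.97 or 0.93 and not called. AK086516, AK148746 and AK086857 were not called in EBF1wt with median scaling (-0.59, -0.52 and -0.72). With normexp and the offset no clone call of these opposite pairs in EBF1wt was kept: AK043653 stood at -0.39, AK086516 at -0.30, AK148746 at -0.38, AK086857 at -0.13 and AK039782 at 0.36, and AK083754 (-0.93) and AK036857 (-0.41) were not called either.

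Ebf1 itself, which the tamoxifen treatment is meant to delete in all samples and which the retrovirus supplied in the EBF1 groups, had 2 named probes and 4 clone probes in or beside its span. The downstream named probe was higher in the EBF1 groups: 1.73, 1.47 and 1.17 in Mock, 3.17, 2.87 and 3.16 in EBF1wt and 3.81, 3.74 and 3.85 in EBF1ΔC. Both named probes were well above background on the 3 Mock arrays, and whether either lies in the deleted part was not determined, so these values do not check the deletion. The upstream named probe, at chr11:44462618-44462677 on the plus strand, went the other way, at -3.03, -2.32 and -2.42 in Mock and not well above background on any EBF1 array, at least 6.56-fold lower in EBF1wt and at least 6.96-fold lower in EBF1ΔC. AK034802, on the strand of Ebf1 and 77.37 kb upstream of the downstream probe, read -2.28, -1.63 and -1.67 in Mock, -5.21, -5.14 and -5.50 in EBF1wt and -4.50, -4.41 and -4.27 in EBF1ΔC. It was well above background on 1 EBF1wt array and on all 3 EBF1ΔC arrays. It was lower by -3.42 ± 0.18 (adjusted p = 2.25e-06) and -2.53 ± 0.18 (adjusted p = 1.15e-05), and its EBF1ΔC arrays all lay above its EBF1wt arrays, by 0.89 ± 0.18, under the 2-fold limit. AK042875, 14.9 kb upstream of the upstream named probe, read -3.13, -2.55 and -2.56 in Mock, -4.62, -4.76 and -4.22 in EBF1wt and -4.39, -4.61 and -4.50 in EBF1ΔC, lower by -1.79 ± 0.19 and -1.75 ± 0.19. AK043298 lies in the span on the opposite strand; it differed by -2.08 ± 0.76 in EBF1wt, a call lost without Mock replicate 1, 2 or 3 (-2.28, -1.92 and -2.05), EBF1wt replicate 2 or 3 (-1.73 and -1.69) or EBF1ΔC replicate 1 (-2.08), and by -1.11 ± 0.76 in EBF1ΔC, which was called without EBF1ΔC replicate 3 (-1.85). AK051846 was detected on no array and was not tested.

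**Figure D5:**
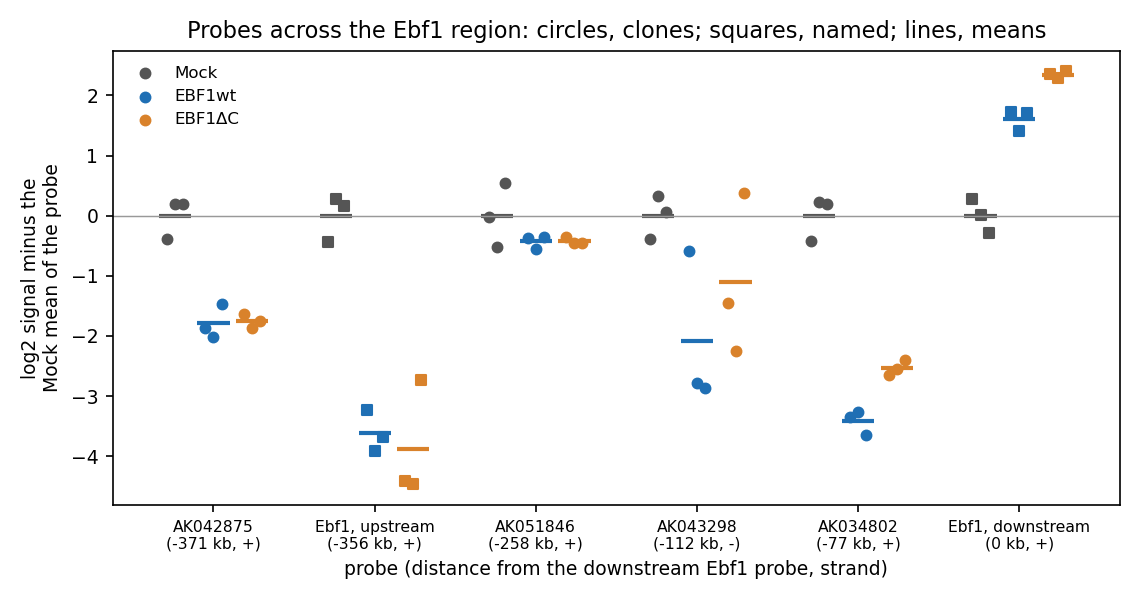
Log2 signal of 6 probes across the Ebf1 region on 9 arrays, each minus the Mock mean of its probe (circles, clones; squares, named probes; lines, group means), with the distance in kb from the downstream Ebf1 probe and the strand. AK042875, AK034802 and the upstream Ebf1 probe are lower on all EBF1 arrays, and the downstream probe is higher.

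With normexp and the offset, AK042875 was not called (-0.48 and -0.51), nor was AK034802 in EBF1ΔC (-0.98), nor were AK037394 (-0.81 and -0.90) and AK089361 (0.60 and 0.69) described next. Near other genes of the lymphoid lists, AK037394 from neonatal thymus, 17.3 kb upstream of a probe of Ikzf1, a lymphoid transcription factor, read -1.91, -1.65 and -1.73 in Mock, -4.07, -3.20 and -3.89 in EBF1wt and -3.69, -3.89 and -3.98 in EBF1ΔC. The clone was lower by -1.96 ± 0.21 and -2.09 ± 0.21, and the Ikzf1 probe by -1.87 and -1.71. AK089361, from dendritic cells, is annotated as Il7r, the interleukin 7 receptor on which pro-B cells depend, and lies 16.1 kb from an Il7r probe on the same strand. It read -4.40, -3.93 and -4.05 in Mock, -3.02, -3.56 and -2.72 in EBF1wt and -3.35, -2.37 and -2.76 in EBF1ΔC. It was higher by 1.03 ± 0.28 and 1.30 ± 0.28, as was the Il7r probe by 1.69 and 1.64. The first call was lost without Mock replicate 1 (0.89), EBF1wt replicate 1 (0.99) or EBF1wt replicate 3 (0.84).

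Few clones were called between the EBF1 forms. Between EBF1ΔC and EBF1wt 5 of the 919 were called higher, against a background of 1.14%, and 2 lower, against 0.854%. At an unadjusted limma p under 0.05 were 110 of the 919, beside 4738 of all 22357 probes tested. The median difference of the clones was 0.03. AK012436, from whole embryo and annotated as adenylate cyclase 7, read -0.92, -0.83 and -0.71 in Mock, -3.19, -3.13 and -2.98 in EBF1wt and -2.05, -2.07 and -1.92 in EBF1ΔC. The 3 groups did not overlap, and EBF1ΔC stood 1.09 ± 0.09 above EBF1wt (adjusted p = 0.00073), 1.20 on the slide with number 4 and 0.93 on the slide with number 5, the slides that held an array of each form. The Adcy7 probe 21.9 kb downstream of it differed by 0.99. AK005018, annotated as an MHC class II antigen and without a position in the files, read 2.54, 2.43 and 2.49 in Mock, -1.41, -1.21 and -0.84 in EBF1wt and -0.02, 0.22 and -0.31 in EBF1ΔC. It was lower by -3.64 ± 0.17 and -2.52 ± 0.17 against Mock, and EBF1ΔC stood 1.12 ± 0.17 above EBF1wt, 0.90 and 0.82 within the slides.

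AK040030, from neonatal thymus, stood 1.51 ± 0.25 higher in EBF1ΔC, AK045817 1.29 ± 0.25 and AK036293 1.05 ± 0.19 higher, the last at least 2.07-fold. AK087304 was lower by -1.14 ± 0.14; it had risen by 1.12 ± 0.14 against Mock in EBF1wt and differed by -0.02 ± 0.14 in EBF1ΔC. AK080577 was called lower by -1.18 ± 0.27, but neither form was well above background there, so no fold is given. With the slide as a fixed block none of the 7 was called, with differences from -1.57 to 1.34. In that fit only slides 4 and 5 compare the forms, and calls over all probes fell from 254 higher and 191 lower to 46 and 47. With the slide as a random block, an unplanned setting, 5 clones were called higher and 2 lower, beside 247 and 190 of all 22357 probes tested. Leaving out 1 array ended the call of AK005018 without EBF1wt replicate 1 (0.99) or EBF1ΔC replicate 2 (0.99), of AK040030 without EBF1ΔC replicate 2 (1.44), of AK036293 without EBF1wt replicate 2 (1.00) or EBF1ΔC replicate 1 or 3 (0.95 and 0.97), of AK045817 without EBF1wt replicate 1 or 2 (1.24 and 1.17) or EBF1ΔC replicate 1, 2 or 3 (1.31, 1.39 and 1.17), and of AK080577 without any of 8 arrays (-1.22 to -0.96). The calls of AK012436 and AK087304 between the forms were kept under each array left out.

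The steadiest clones were chosen by the smallest range over the 9 arrays, so their small spread is what chose them. AK077428, from embryo, read 0.28, 0.25 and 0.37 in Mock, 0.40, 0.52 and 0.47 in EBF1wt and 0.30, 0.40 and 0.43 in EBF1ΔC. AK012844, which the files mark as a chimeric clone, read -1.90, -1.83 and -2.04 in Mock, -1.81, -1.87 and -2.05 in EBF1wt and -2.04, -1.86 and -1.71 in EBF1ΔC. The groups overlapped in AK012844, and in AK077428 Mock lay below EBF1wt by 0.16 ± 0.08 with no call.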

How the data were processed

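Total RNA of 9 samples was read in 1 colour on Agilent mouse arrays. The deposited intensity of each spot is the processed signal of Agilent Feature Extraction, background-subtracted and not normalized between arrays, per the file headers. These name version 10.5.1.1, and the submitters' processing notes name 9.1. The authors also deposited log2 values, whose normalization is not given in the sources used here. Their direction and scale were taken from their correlation with the normexp, offset and quantile values (Pearson r from 0.9991 to 0.9992 across probes). They served as an alternative that lies close to that setting and is no separate check of it. Positions are mm9 as in the files.

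Of 45018 spots 43379 were not controls, outlier spots (73 to 163 per array) were left out, spots of a probe were averaged, and log2 signals were set to each array's 75th percentile. All 9 arrays entered 1 model of 3 group means in limma 3.58.1 (R 4.3.3, 6 residual degrees of freedom), tested on simulated data first; errors are SE of the model and p-values are two-sided. A call needed a Benjamini-Hochberg adjusted p under 0.05 over all 22357 probes tested and a log2 difference of at least 1. The depth of an array is not a count; its number of replicates and its signal over background set the precision.

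The clones, lists and tests were chosen with earlier results of these data known. Clones were named by rule: per comparison the 8 highest and 8 lowest called with groups apart, the 4 largest bounds in each direction, clones within 50 kb of listed lymphoid genes, the extremes from immune sources, pairs within 10 kb with a steady or opposite neighbour, the 4 steadiest and those at Ebf1. Of the clones the rule gives, some are summarised only. Alternatives were other background corrections, scalings, filters, blocks, weights and leaving out each array.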

Additional observations from a re-analysis of the deposited data

Results flagged for a closer look

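In the limma test of the 2 forms of EBF1 against each other, 5 of the 919 clones were called higher in EBF1ΔC and 2 lower. These shares, 0.544% and 0.218%, were below the 1.14% and 0.854% of all probes tested. AK012436 differed by 1.0854 on the log2 scale (adjusted p = 0.00073), AK045817 by 1.2881 (adjusted p = 0.0239), AK040030 by 1.508 (adjusted p = 0.0128) and AK036293 by 1.0506 (adjusted p = 0.0184). AK005018 differed by 1.1186 (adjusted p = 0.00953), AK087304 by -1.137 (adjusted p = 0.00427) and AK080577 by -1.1783 (adjusted p = 0.0447). With the slide as a fixed block none of the 7 was called. None was called either with normexp and quantile normalization, with or without the offset, or with the authors' log2 values. With the slide as a random block 5 clones were called higher and 2 lower, beside 247 and 190 of all 22357 probes tested.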

How the results depend on the processing

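Against Mock the median of the tested clones stayed below 0 under each alternative run, from -1.503 to -0.17 in EBF1wt and from -1.42 to -0.19 in EBF1ΔC, while counts moved with background and scaling; the cause was not tested. With normexp, offset 50 and quantile normalization, 3 clones were higher and 98 lower in EBF1wt (median -0.22), 4 and 93 in EBF1ΔC (-0.23), and 0 and 0 between the forms. Of all probes tested 5.45% and 5.39% were lower there. Without the offset 232 (median -0.50) and 259 (-0.54) clones were lower, beside 8.97% and 9.13% of all probes tested. Between the forms 0 and 0 were called. Quantile normalization gave 54 and 53 higher (medians -0.85 and -0.92), beside 2058 and 2009 of all 22357 probes. Between the forms it gave 3 clones higher and 4 lower, beside 212 and 187 of all 22357 probes. Median scaling gave 80 higher and 343 lower (-0.65) in EBF1wt, 70 higher (-0.72) in EBF1ΔC, and 2 and 6 between the forms (-0.13). Of all 22357 probes it called 7926 higher and 1978 lower in EBF1wt, 5520 higher in EBF1ΔC, and 219 and 287 between the forms. The authors' deposited log2 values gave 3 and 83 (-0.17), 3 and 81 (-0.19), and 0 and 0, beside 5.19% and 5.16% of all probes lower against Mock. AK082584 turned to 0.21 there, which used the spot left out elsewhere.

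With clones detected on any 1 array the medians were -1.01 and -0.98, and 1 was lower between the forms, beside 158 of all 26614 probes. With those on all 9 arrays 10 were higher and 234 lower in EBF1wt (-0.93), 13 and 236 in EBF1ΔC (-0.87), and 2 and 0 between the forms. All 19331 such probes gave 1085 and 2154, 1043 and 2072, and 165 and 126. The adjusted p alone called 57, 59 and 10 higher, beside 7892, 7583 and 611 of all 22357 probes. Between the forms the fixed slide block gave 0 and 0, beside 46 and 47 of all 22357 probes. The random slide block gave 5 and 2, beside 247 and 190. A trended robust fit and a fit of the 2 groups gave 1 lower each, beside 201 and 119 of all 22357 probes. Leaving out 1 array gave 15 to 22 higher, 497 to 567 lower and medians of -1.503 to -1.25 in EBF1wt, 16 to 23, 494 to 561 and -1.42 to -1.21 in EBF1ΔC, and 2 to 6, 1 to 4 and -0.03 to 0.08 between the forms. Of all 22357 probes these fits called 1273 to 1429 higher and 3563 to 4026 lower in EBF1wt. They called 1277 to 1434 and 3369 to 3776 in EBF1ΔC, and 165 to 278 and 148 to 191 between the forms. Pairs with the clone lower and the neighbour not called were 25.6% and 28.0% within 2 kb and 40.5% and 42.0% within 50 kb.

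The labels do not say whether replicate numbers pair the arrays. Correlations of deviations from the group means ran from -0.14 to 0.14 for same numbers and from -0.16 to 0.16 for different numbers. Such correlations cannot exclude a shared culture or day. With the replicate block 20 clones were higher and 542 lower in EBF1wt, beside 1360 and 3884 of all 22357 probes. Slide and group cannot be told apart for Mock. Dim signals over background limit the size of each fold.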

Other observations

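A few clones have more than 1 probe on the array; these were picked after their values were seen. The probes of AK054546, which overlap, differed by -1.24 and -1.21 between EBF1wt and Mock, and those of AK087326 by -1.31 and -1.57, all called lower. The probes of AK007113, a testis clone, did not move together: one differed by 0.54 and was well above background on all 9 arrays, and the other differed by -2.41, was called lower and was well above background on the Mock arrays alone. Those of AK031518, a clone upstream of a Ptch1 probe, differed by -2.39, called lower, and by -0.49, not called.

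AK139506, from the 2-cell egg, had its 3 highest arrays on slides 3 and 4, at 3.89 and 3.43 in EBF1wt and 3.79 in EBF1ΔC, and read between 1.14 and 1.74 on the other 6 arrays. The part of the slide in this was not tested.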
